A study of Mus musculus with 6 samples.

Results

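Complement components and regulators were followed across 6 arrays labelled as mouse retina. They were read through every probe set whose annotation names exactly 1 of 9 genes (C1qa, C1qb, C1qc, C2, C3, C4b, Cfb, Cfi and Serping1). The rule found 11 probe sets of 7 genes among 45037 non-control probe sets, of which 34945 name 1 gene. C1qb and C2 have 3 probe sets each, and C1qa, C1qc, Cfb, Cfi and Serping1 have 1 each. C4b is annotated only together with C4a, and no probe set of the annotation used here names C3 alone, so neither gene has a value below.

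By the labels, all mice were BALB/c AJ, an albino strain, at post-natal day 40. The labels also give all tissue as retina dissected away from the pigment epithelium. Of the arrays, 3 are labelled wt/wt and 3 ko/ko for Nxnl2, the gene of a thioredoxin-like protein of photoreceptors. The labels name no promoter, Cre or further allele, and leave unsaid if each replicate was its own animal. The p-values therefore cover the spread among arrays, part or all of which may be technical. The comparison asks whether complement transcripts differ in the retina when Nxnl2 is missing.

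Complement is a cascade of blood and tissue proteins that tags material for removal. Its classical route starts with C1q, a molecule built from A, B and C chains, which acts through C2 and C4, while factor B drives an alternative route that amplifies the deposit of C3. Serping1 and factor I restrain the cascade. In retina and brain, C1q is made chiefly by microglia, the resident macrophages, and C1q and its partners are known to take part in the removal of synapses and in responses to retinal damage.

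Nxnl2 was read first in every array. Its first probe set gave 11.38 to 11.45 on the log2 scale in wild type and 3.78 and 3.73 in knockout replicates 1 and 2, but 9.21 in the array labelled knockout replicate 3. Over all probe sets that array correlated at 0.848 to 0.853 with the others, while the other 5 arrays correlated with each other at 0.994 to 0.996. All 12 measured rod markers lay more than 1 log2 unit below the wild-type mean there, and all 11 nasal mucosa markers lay more than 1 above. The medians of these lists were -9.17 and 7.63 from the wild-type mean, so that array did not read as the retina its label names. This array is therefore shown separately from knockout replicates 1 and 2, and results are given with and without it. The highest Bacillus control probe set, which matches no mouse transcript, read 4.13 to 4.60 across the arrays and is used as the level of background.

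The 3 chains of C1q are encoded side by side on chromosome 4, in the order C1qb, C1qc, C1qa in the RefSeq annotation (GRCm38.p6). C2 and Cfb are likewise neighbours, on chromosome 17. Promoter sequences were at hand for only 2 of the 7 measured genes, C1qb and C1qc, and these are shown to set the neighbouring C1q genes side by side. Each is 300 bases long, 250 before and 50 after the start of the gene, on the minus strand. Capitals mark GAGGAA or its reverse complement, the core bound by PU.1, a transcription factor of macrophages.
C1qb promoter, chr4:136886151-136886450: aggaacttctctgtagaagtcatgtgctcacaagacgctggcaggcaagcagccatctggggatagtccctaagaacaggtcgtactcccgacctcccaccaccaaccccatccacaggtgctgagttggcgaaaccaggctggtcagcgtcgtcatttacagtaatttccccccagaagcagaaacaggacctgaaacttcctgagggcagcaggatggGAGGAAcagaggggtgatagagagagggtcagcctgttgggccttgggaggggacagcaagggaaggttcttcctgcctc
C1qc promoter, chr4:136892865-136893164: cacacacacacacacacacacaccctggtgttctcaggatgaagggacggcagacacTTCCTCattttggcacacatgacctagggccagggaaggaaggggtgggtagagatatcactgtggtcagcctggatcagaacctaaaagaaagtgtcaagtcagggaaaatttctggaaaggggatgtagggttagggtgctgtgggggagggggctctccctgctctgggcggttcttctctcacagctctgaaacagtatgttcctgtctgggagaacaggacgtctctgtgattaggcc
The match begins 30 bases before the start site in C1qb and 193 before it in C1qc, where it lies on the other strand. Of 32851 promoters of this length, 28.3% hold the same letters on either strand. The ISRE of interferon-response genes and the NF-kB site were also searched on both strands and are in neither window, while 3.44% and 0.155% of all promoters hold them. These matches describe the letters only.

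C1q transcripts lay above all wild-type arrays in knockout replicate 1 for every probe set, while in knockout replicate 2 this held for 3 of the 5, a pair of C1qb probe sets and C1qc. Over all genes, each by 1 probe set, 22.3% lay above all 3 wild-type arrays in knockout replicate 1 and 31.3% in knockout replicate 2. No member passed the test of knockout against wild type, either in the 5 arrays without the array labelled knockout replicate 3 or in all 6.

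C1qa, the A chain, read 7.13, 7.10 and 6.90 in wild-type replicates 1 to 3, against 7.87 and 7.03 in knockout replicates 1 and 2. Knockout replicate 1 was thus 0.83 above the wild-type mean of 7.05 ± 0.13 (SD, n = 3), a 1.77-fold level, and knockout replicate 2 lay within the wild-type range. In the 5 arrays the log2 change was 0.41 (SE 0.22, limma adjusted p = 1.0).

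C1qc, the C chain, read 5.78, 5.77 and 5.44 in wild type, against 6.46 and 5.83 in knockout replicates 1 and 2. Both knockout arrays lay above all wild-type arrays, the second by a margin far smaller than the wild-type spread of 0.19 (SD, n = 3). The log2 change was 0.48 (SE 0.19, limma adjusted p = 1.0).

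C1qb, the B chain, has 3 probe sets that gave different pictures of knockout replicate 2. Probe set 1434366_x_at read 6.50, 6.73 and 6.80 in wild type, against 7.23 and 7.13 in knockout replicates 1 and 2, so the knockout arrays lay close together and above wild type. Its log2 change was 0.50 (SE 0.12) with an unadjusted limma p of 0.00287, the smallest among the members, and an adjusted p of 1.0.

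Probe set 1417063_at read 6.17, 6.20 and 5.90 in wild type, against 7.15 and 6.26 in knockout replicates 1 and 2. Here knockout replicate 1 stood 1.06 above the wild-type mean, a 2.08-fold level, and knockout replicate 2 only 0.17 above it. The log2 change was 0.61 (SE 0.23, limma adjusted p = 1.0).

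Probe set 1437726_x_at read 4.53, 4.89 and 4.55 in wild type, against 5.15 and 4.31 in knockout replicates 1 and 2. Knockout replicate 2 was the lowest of these arrays, 0.35 below the wild-type mean, and fell under the highest Bacillus control of its array (4.41). The log2 change was 0.07 (SE 0.23, limma adjusted p = 1.0). Names ending in _x_at mark probe sets that can also bind other transcripts, which holds for 2 of the 3 C1qb probe sets. It also holds for 2 of the 3 C2 probe sets.

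**Figure D1:**
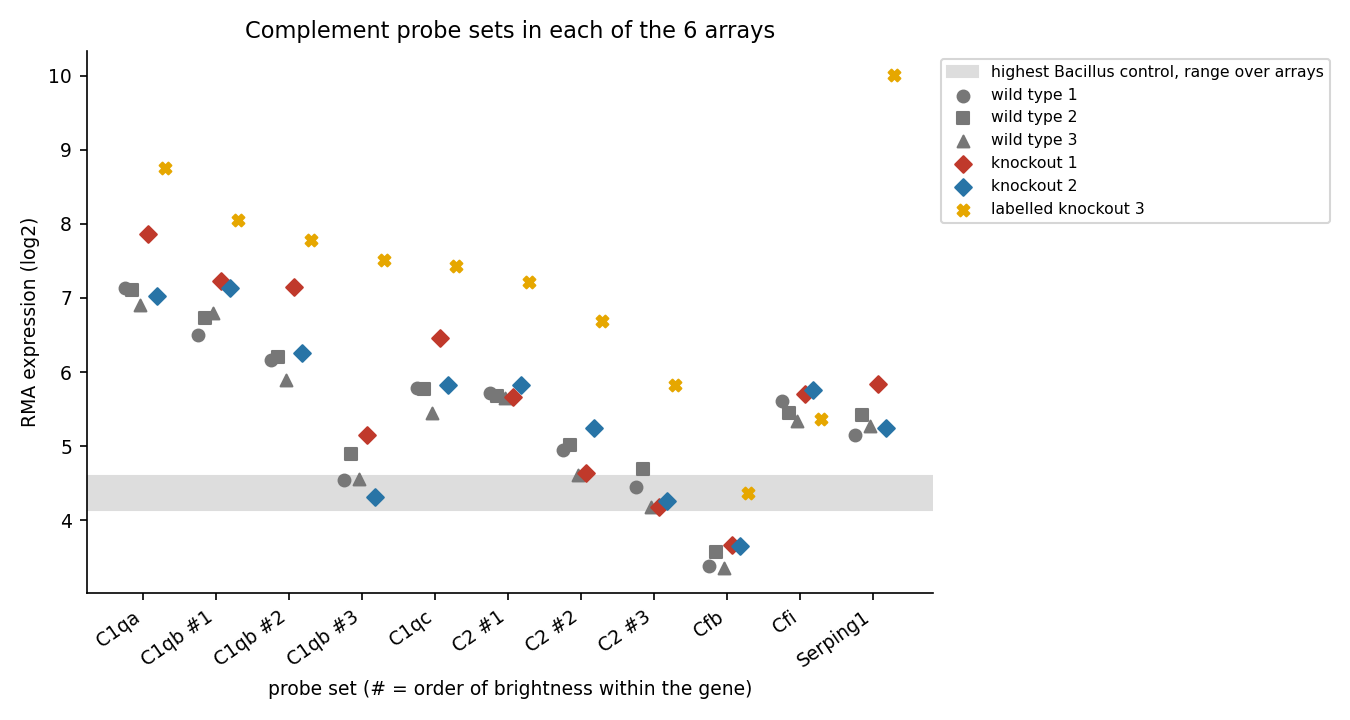
RMA expression (log2, vertical axis) of the 11 complement probe sets in each array; grey symbols are wild type, red and blue diamonds knockout replicates 1 and 2, yellow crosses the array labelled knockout replicate 3, and the grey band the highest Bacillus control over the arrays (4.13 to 4.60). Probe sets of a gene are numbered by brightness. Red diamonds of all 5 C1q probe sets lie above every grey symbol, and the yellow crosses are highest for all probe sets except that of Cfi.

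Serping1 encodes the C1 inhibitor, which blocks the proteases carried by C1q. It read 5.15, 5.42 and 5.27 in wild type, against 5.84 and 5.24 in knockout replicates 1 and 2. As for C1qa, knockout replicate 1 lay above wild type, by 0.56, and knockout replicate 2 inside its range. The log2 change in the 5 arrays was 0.26 (SE 0.17, limma adjusted p = 1.0).

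Cfi, the protease that cleaves deposited C3b and C4b, differed in another way. It read 5.60, 5.44 and 5.34 in wild type, against 5.70 and 5.75 in knockout replicates 1 and 2. Both knockout arrays lay just above wild type by like amounts, 0.24 and 0.29 over its mean. The log2 change was 0.26 (SE 0.11, limma adjusted p = 1.0, unadjusted 0.0442).

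Factor B (Cfb), the protease subunit of the alternative route, was under the background level in wild type and in knockout replicates 1 and 2. Its values were 3.38, 3.57 and 3.35 in wild type, then 3.67 and 3.66. These arrays do not overlap, but all 5 lie below the highest Bacillus control of the same array, so its log2 change of 0.23 (SE 0.11, limma adjusted p = 1.0) cannot be told from background.

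C2, the protease that C1 cleaves, has 3 probe sets. Knockout replicate 2 lay above all wild-type arrays for 1441912_x_at and 1416051_at, at 0.14 and 0.39 over the wild-type mean. Knockout replicate 1 was below that mean for both, at -0.02 and -0.22. Probe set 1441912_x_at read 5.72, 5.68 and 5.66 in wild type, against 5.67 and 5.82 in knockout replicates 1 and 2. For 1416051_at the values were 4.95, 5.01 and 4.60, then 4.64 and 5.24, and for 1457664_x_at they were 4.44, 4.69 and 4.18, then 4.18 and 4.25. The log2 changes were 0.06 (SE 0.10), 0.08 (SE 0.19) and -0.22 (SE 0.15), each with a limma adjusted p of 1.0, and wild type and knockout overlapped in all 3.

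Across the 11 probe sets, 10 changes in the 5 arrays were above 0, with a median of 0.26 and a range of -0.22 to 0.61, where 51.4% of all probe sets were above 0. By limma, 0 of 11 passed an adjusted p of 0.05, against 0.0111% of all probe sets. At an unadjusted p under 0.05 stood 4 of 11, all higher, against 1.45% of all probe sets in that direction. Wild type and knockout did not overlap in 5 of 11, with knockout higher in each, against 8.40% of all probe sets. These 5 were a pair of C1qb probe sets and those of C1qc, Cfb and Cfi. The probe sets of a gene share its transcript, and the 3 C1q genes share their cells, so these counts are linked.

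Most of the C1q difference came from knockout replicate 1. It was the highest of the 5 arrays for 7 of 11 probe sets (all 5 of C1q, Cfb and Serping1), where 19.0% of all probe sets had it highest. Knockout replicate 2 was highest for 3 of 11 (a pair of C2 probe sets and Cfi), against 23.8%. More than 0.5 log2 units above the wild-type mean lay 5 of 11 in knockout replicate 1, against 0.939% of all probe sets, and 0 of 11 in knockout replicate 2, against 0.537%. This step of 0.5 was chosen after the values were seen. Over the 5 C1q probe sets the median difference from the wild-type mean was 0.80 in knockout replicate 1 and 0.17 in the second, against -0.14 to 0.11 in wild type. Without knockout replicate 1, the log2 change became -0.02 for C1qa, 0.17 for C1qc and -0.03 for Serping1, and for C1qb it became 0.45, 0.17 and -0.35 in the order of probe sets above. Without knockout replicate 2, those changes were 0.83, 0.80, 0.56, 0.55, 1.06 and 0.49.

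**Figure D2:**
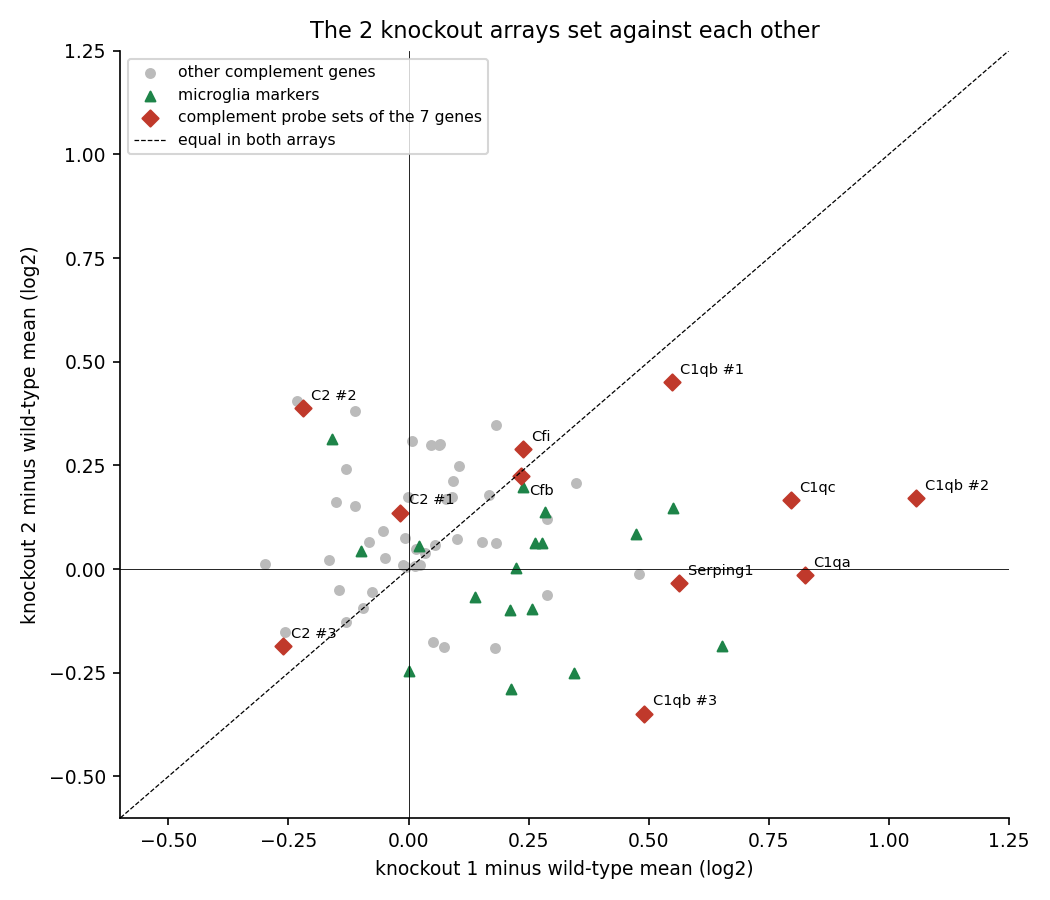
Difference from the wild-type mean (log2) in knockout replicate 1 (horizontal) and knockout replicate 2 (vertical) for the 11 complement probe sets (red), 44 other complement genes (grey) and 17 microglia markers (green); the dashed line marks equal values in both arrays. The C1q probe sets and Serping1 lie to the right of the dashed line, from 0.49 to 1.06 in knockout replicate 1 and from -0.35 to 0.45 in knockout replicate 2, while Cfi lies near it.

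With all 6 arrays the log2 changes of all member probe sets except that of Cfi were higher than in the 5 arrays, and the standard errors of all 11 were larger. The log2 change was 0.84 (SE 0.43) for C1qa and 0.91 (SE 0.41) for C1qc. For C1qb it was 0.79 (SE 0.27), 0.97 (SE 0.39) and 0.998 (SE 0.82). C2 stood at 0.55, 0.67 and 0.31, Cfb at 0.47, Cfi at 0.14 and Serping1 at 1.75 (SE 1.27). All 11 were above 0, where 46.5% of all probe sets were, with a median of 0.79. By limma none passed, with adjusted p from 0.798 to 0.830, and 0% of all probe sets passed. At an unadjusted p under 0.05 stood 2 of 11, both of C1qb, against 0.338% of all probe sets on the higher side. Groups did not overlap in 4 of 11, all higher, against 3.79% of all probe sets.

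**Figure D3:**
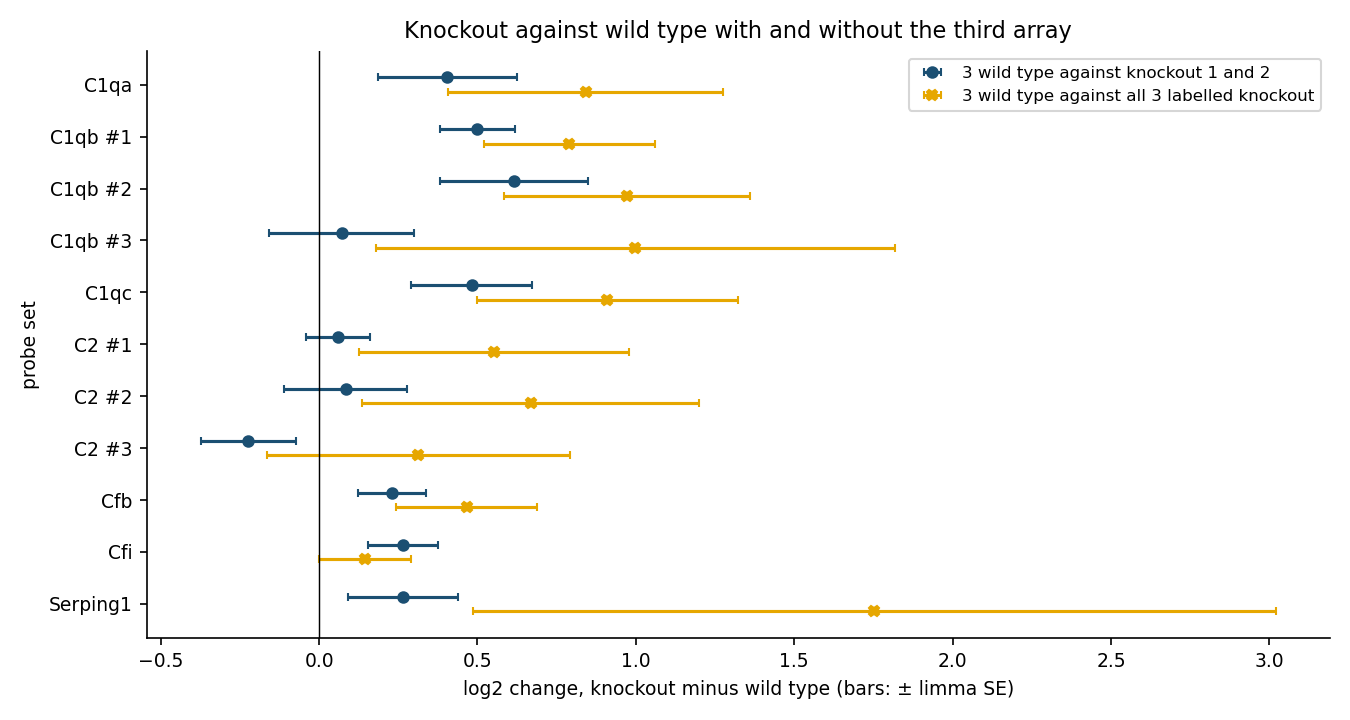
Log2 change, knockout minus wild type, of each complement probe set with its limma standard error (bars); blue circles use 3 wild-type arrays and knockout replicates 1 and 2, yellow crosses use all 3 arrays labelled knockout. Adding the third array moves Serping1 from 0.26 to 1.75 and widens its standard error from 0.17 to 1.27, while Cfi moves from 0.26 to 0.14.

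In the array labelled knockout replicate 3, most members read far above every other array. Serping1 stood at 10.01, 4.73 above the wild-type mean of 5.28 ± 0.13 (SD, n = 3), a 26.5-fold level. C1qa read 8.76 and C1qc 7.43, which are 1.71 and 1.77 above wild type. The C1qb probe sets read 8.05, 7.78 and 7.51, or 1.37, 1.69 and 2.85 above it. These are values of 1 array and have no replicate check.

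C2, whose groups overlapped in the other arrays, read 7.22, 6.69 and 5.83 there, 1.54, 1.84 and 1.39 above the wild-type mean. Cfb read 4.37, which is the only array where it passed the highest Bacillus control (4.13). Cfi alone was not raised: it read 5.37, within the wild-type range and below knockout replicates 1 and 2. More than 1 log2 unit above wild type lay 9 of 11 probe sets, against 12.0% of all probe sets, and 10 of 11 were higher there than in the other 5 arrays, against 31.4%.

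The other complement genes were taken from lists by role, each gene by its probe set with the highest mean, with 44 of 53 names measured. In the 5 arrays 0 of 44 passed in either direction by limma (smallest adjusted p 0.999), where 0.0110% of 18193 genes passed, and 2 had an unadjusted p under 0.05, both higher, against 1.84% of all genes on that side. These 2 were C6 and Clu. Of the 44, 31 lay above 0, with a median of 0.05, against 51.9% and a median of 0.00 over all genes. The 7 member genes had a median of 0.26 on the same scale, with 7 of 7 above 0.

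Starters of the classical and lectin routes had a median of 0.03 over 10 genes. Masp1, a lectin-route protease, stood at 0.18 (SE 0.10), Colec11, a collectin, at 0.16, and Mbl1, a mannose-binding lectin, at 0.11. Colec11 was under the highest Bacillus control in all 6 arrays, and Mbl1 was above it in only 2. C1s1, a protease carried by C1q, read 3.93, 3.93 and 3.69 in wild type, then 3.93 and 4.02, all under background, and 8.14 in the array labelled knockout replicate 3. Its change in the 5 arrays was 0.12 (SE 0.11), and knockout replicate 1 lay within the wild-type range.

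Properdin (Cfp), which stabilises the alternative convertase, stood at -0.06 and Cfhr2, a factor H-related protein, at 0.18, though Cfhr2 was under background in all 6 arrays. Among 6 terminal genes, which form the membrane pore, the median was 0.06. C6 stood at 0.26 (SE 0.10, limma adjusted p = 0.999), C8g at 0.17, C8b at -0.10 and Hc, the mouse C5 gene, at -0.07. C6 and Hc were under the highest Bacillus control in all 6 arrays, C8g was above it in 1, the array labelled knockout replicate 3, and C8b in 4.

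Complement receptors had a median of 0.11, with 8 of 9 above 0, against 51.9% of all genes. Only 3 to 4 of the 9 lay above the highest Bacillus control in each of the 5 arrays. Cd93, a receptor of endothelium and myeloid cells, stood at 0.18 (SE 0.10) and C3ar1, the C3a receptor, at 0.13. Itgb2, the shared chain of complement receptors 3 and 4, was 0.48 above wild type in knockout replicate 1 and -0.01 from it in knockout replicate 2, though under background in both. Itgax, the partner chain of complement receptor 4, stood at -0.11 and 0.38, the first of these within the wild-type range.

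Regulators other than the members had a median of 0.02 over 17 genes. Clusterin (Clu), a fluid-phase inhibitor of the pore, read 12.18, 12.19 and 12.07 in wild type, against 12.50 and 12.35 in knockout replicates 1 and 2. Both knockout arrays lay above wild type, and the change was 0.28 (SE 0.10, limma adjusted p = 0.999). Csmd2 stood at 0.20, and Sez6l and Csmd1 at -0.20 and -0.14; all 3 encode neuronal proteins with complement control domains. In the array labelled knockout replicate 3, regulators went both ways: 3 of 17 lay more than 1 above the wild-type mean and 7 more than 1 below. Cd55, which speeds the decay of convertases, was 3.73 above it, and vitronectin (Vtn), another inhibitor of the pore, read 7.15 against 12.64 to 12.69 in wild type.

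Most microglia markers were higher in the array where C1q was higher. In knockout replicate 1, 15 of 17 markers lay above the wild-type mean and 13 of 17 above all 3 wild-type arrays, where 22.3% of all genes did. In knockout replicate 2 these counts were 10 and 2 of 17, against 31.3% of all genes above all 3. Fcrls and Siglech lay below the wild-type mean in knockout replicate 1, at -0.16 and -0.10. The list's median difference was 0.24 and 0.04 in knockout replicates 1 and 2. Its mean level was 5.44 to 5.54 in wild type, against 5.72 and 5.48 in knockout replicates 1 and 2. In the array labelled knockout replicate 3 that level was 6.71. Of the 17 markers, 13 to 14 lay above the highest Bacillus control in each of the other 5 arrays and 15 in that one. What part microglial transcripts have in the C1q values was not tested, and in bulk tissue more cells of a type and more RNA per cell cannot be told apart.

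Among the markers, Tyrobp, a signalling adaptor of myeloid cells, read 5.91, 5.82 and 5.85 in wild type, against 6.41 and 6.01 in knockout replicates 1 and 2 (log2 change 0.35, SE 0.13, limma adjusted p = 0.999). Csf1r, the receptor on which microglia depend, stood at 0.28 (SE 0.13), with 0.47 and 0.09 in the knockout arrays. Laptm5 and Cd68, lysosomal proteins of these cells, stood at 0.22 and 0.21. P2ry12, a receptor of resting microglia, was 0.26 above wild type in knockout replicate 1 and -2.04 from it in the array labelled knockout replicate 3. Tmem119, another such marker, was 0.00 and 3.26 from wild type in the same arrays, so the defining markers were split there. Of the 17 markers, 11 were more than 1 above wild type in that array, against 15.8% of all genes, and 1 was more than 1 below.

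Interferon is a known inducer of several complement genes. Interferon-response genes had a median of 0.14 with 12 of 16 above 0 in the 5 arrays, and none passed. Above all 3 wild-type arrays lay 7 of 16 in knockout replicate 1 and 2 of 16 in knockout replicate 2, against 22.3% and 31.3% of all genes. Gbp2, an interferon-induced GTPase, read 3.25, 3.58 and 3.43 in wild type, against 4.42 and 3.54 in knockout replicates 1 and 2. Of these 5 arrays it passed background only in knockout replicate 1. B2m, the light chain of class I antigen presentation, was 0.69 above the wild-type mean in that array and level with it in knockout replicate 2. In contrast Tap1, the peptide transporter of that route, stood at -0.29 (SE 0.10) and Irf7 at -0.23 (SE 0.12).

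Markers of other cell types were read in the same arrays. Müller glia had a list median of 0.06 in knockout replicate 1 and -0.01 in knockout replicate 2, with Gfap at 6.93 and 6.21 against 5.65, 6.27 and 6.29 in wild type. Above all 3 wild-type arrays lay 6 of 12 Müller markers in knockout replicate 1 and 2 of 12 in knockout replicate 2. Over all genes these shares were 22.3% and 31.3%. Rod markers stood at -0.12 and 0.06 and vessel markers at 0.06 and 0.22. By the same count, 1 and 6 of 12 rod markers and 4 and 8 of 12 vessel markers lay above all 3 wild-type arrays. The largest changes in these 2 lists were those of Prph2 and Ptprb, and neither passed. Prph2, a rod marker, stood at -0.63 and -0.90 (log2 change -0.77, SE 0.13, limma adjusted p = 0.578). Ptprb, a vessel marker, stood at 0.45 and 0.38 (log2 change 0.42, SE 0.09, limma adjusted p = 0.999). Muscle markers stood at -0.39 and 1.91, with 12 of 12 above all wild-type arrays in knockout replicate 2, against 31.3% of all genes. Lens markers stood at 1.93 in wild-type replicate 2 alone. Pigment epithelium markers stood at -0.14, 0.50 and -0.38 in wild-type replicates 1 to 3. They stood at -0.74 and -0.27 in knockout replicates 1 and 2, the second within the wild-type range. Pigment epithelium transcripts were present in each of these 5 arrays, with 11 of 11 markers above the highest Bacillus control. The mean level of that list was 7.47 to 8.30 in wild type and 7.10 to 7.65 in knockout replicates 1 and 2. Blood markers stood at -0.03 and 0.25. In the array labelled knockout replicate 3, blood markers stood at 3.87, nasal mucosa markers at 7.63 and rod markers at -9.17. What these tissues contribute to its complement values was not tested.

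**Figure D4:**
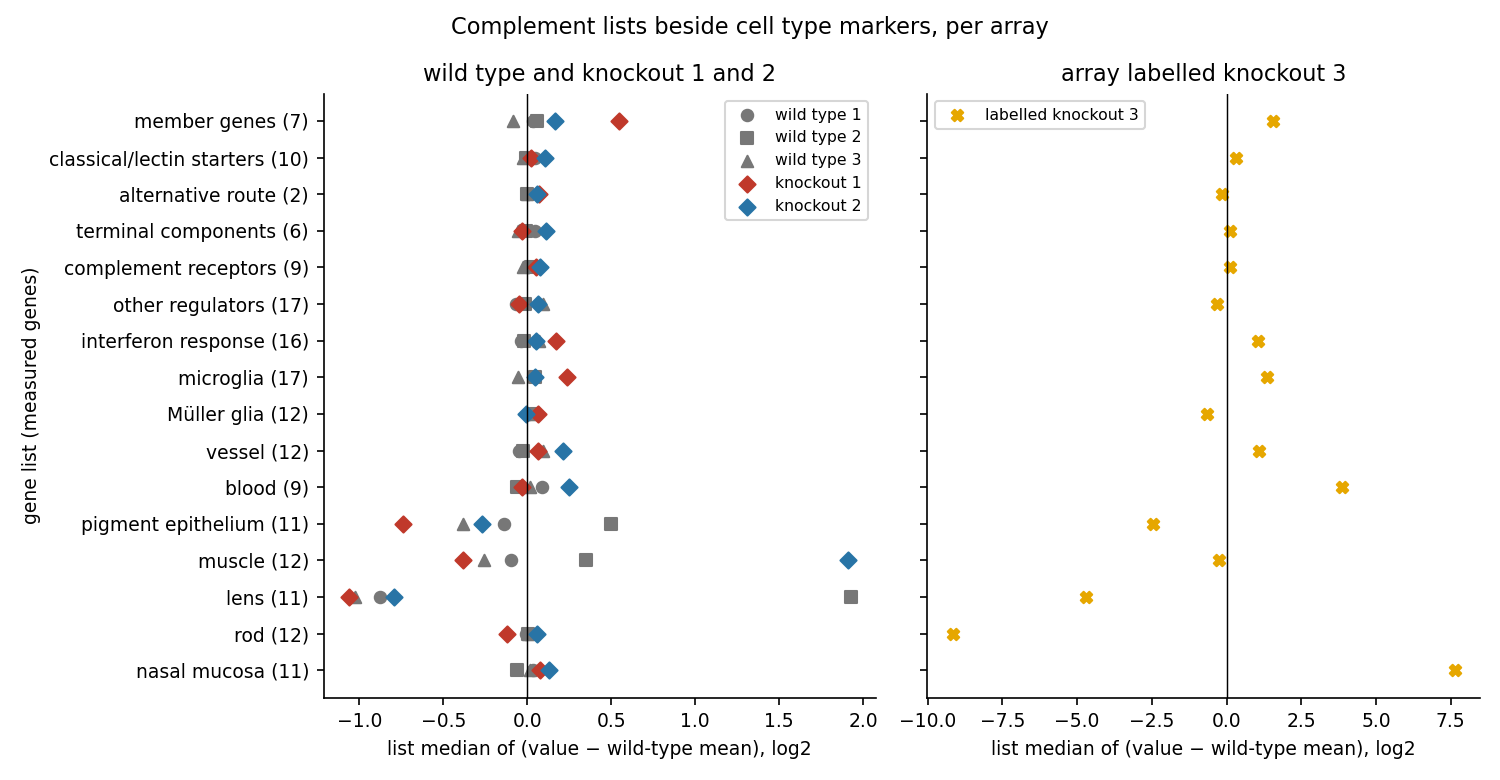
Median difference from the wild-type mean (log2) over the measured genes of each list, per array; the left panel holds wild type (grey) and knockout replicates 1 (red) and 2 (blue), the right panel the array labelled knockout replicate 3 (yellow) on a wider axis. The member genes stand at 0.55 and 0.17 in knockout replicates 1 and 2, beside 0.24 and 0.04 for microglia markers.

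The genes whose profile was most like that of C1q were sought among 12844 genes above the highest Bacillus control in all 6 arrays, by the root mean square difference from the mean C1q profile over those arrays. That profile was 0.72 in knockout replicate 1, 0.20 in knockout replicate 2 and 1.62 in the array labelled knockout replicate 3. Stat3, a transcription factor of cytokine signalling, was nearest, with a root mean square difference of 0.10 and values of 0.75, 0.03 and 1.51. Cd53, a tetraspanin of leukocytes, followed with 0.12, at 0.49, 0.18 and 1.78. Grn, the progranulin gene, Wwtr1, a Hippo pathway co-activator, and Lamp2, a lysosomal membrane protein, came next, each with a difference of 0.15. The array labelled knockout replicate 3 has the largest values in this profile and so weighs most in the measure.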

How the data were processed

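Biotin-labelled cRNA of retina was hybridised to one-colour Affymetrix arrays, per the labels' protocols. The deposited values are log2 expression per probe set. Per the submitters' processing notes they come from RMA, whose software, version and chip definition were not given in the sources used here. Array medians of 5.77 to 5.80 leave total RNA per sample out of sight, and no detection calls come with the values. With so few arrays, precision is limited.

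Outside the tests stayed 64 control probe sets. Names come from the platform annotation: 34945 probe sets name 1 gene, 932 several and 9160 none. Of 18193 genes, 18031 matched RefSeq (GRCm38.p6) by Entrez identifier. Differences were tested with limma 3.58.1 in R 4.3.3 (lmFit, eBayes, two-sided, Benjamini-Hochberg over all probe sets or genes, threshold 0.05), after a check on simulated data. For probe sets in 5 arrays, that check recovered 4.48% of simulated 1.5-fold changes and 79.1% of 2-fold changes, so small changes would mostly be missed. Its spread came from the 5 arrays, so it does not describe the comparison with all 6. A gene takes its probe set with the highest mean over 6 arrays. Single-array differences are values minus the wild-type mean.

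Named were all member probe sets, from each list up to 4 genes with the smallest p in the 5 arrays, and the 5 genes nearest to the C1q profile, of which a selection is given. P2ry12, Tmem119, Fcrls, Siglech, Cd55 and Vtn were added after their values were seen. Members and lists were chosen with earlier results of these data known. Alternatives covered the variance model, array weights, quantile normalization, centring, a filter on dim probe sets, a replicate block, leaving out arrays, the choice among probe sets of a gene and a threshold of 0.1. A further promoter motif that was planned is not reported here. Figures used matplotlib 3.10.9.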

Additional observations from a re-analysis of the deposited data

How the results depend on the processing

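No member passed under any alternative: the count of called complement probe sets and genes stayed at 0 in both the 5-array and the 6-array comparison, with each array left out (0 to 0) and with the replicate block (0). At an unadjusted limma p under 0.05 the counts were 4 and 2 of 11 probe sets. Deviations of same-numbered arrays from their group means correlated at -0.061, -0.031 and -0.10 in 6 arrays, and at -0.066 and 0.15 in 5. These values cannot decide if the replicate numbers pair the arrays. In the 6 arrays the knockout mean includes the array labelled knockout replicate 3. In the 5 arrays the deviations of the 2 knockout arrays mirror each other.

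In the 6 arrays, the median log2 change was 0.79 over probe sets and over genes. With array quality weights it was 0.20 and 0.25, and leaving out single arrays gave 0.26 to 0.96. Weights turned the third C1qb probe set to -0.095 and the third C2 probe set to -0.23, and the latter lay between -0.22 and 0.60 as arrays were left out in turn. In the 5 arrays, the median was 0.26; with dim ones removed it was 0.41 over 7 probe sets and 0.48 over 3 genes, and leaving out single arrays gave 0.17 to 0.49 over probe sets and 0.17 to 0.55 over genes. The range with an array left out was -0.015 to 0.83 for C1qa, -0.35 to 0.49 for the third C1qb probe set and -0.035 to 0.56 for Serping1, the lowest without knockout replicate 1. It was -0.017 to 0.14 and -0.22 to 0.39 for the first and second C2 probe sets, the lowest without knockout replicate 2, and the second stood at -0.042 with the replicate block. A lone knockout array was given the spread of the wild-type arrays. For the array labelled knockout replicate 3, alternatives chosen after seeing the data kept 9 to 10 of 11 probe sets more than 1 above wild type. The dim level of Cfb and of the third probe sets of C1qb and C2 limits what they can show.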
